A study of Mus musculus with 8 samples.

Results

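The annexins, a family of calcium-dependent membrane-binding proteins, were examined in RNA-seq data from B16F10 cells, a mouse melanoma line. The 8 genes *Anxa1* to *Anxa7* and *Anxa11* were taken by symbol from an expression table of 55414 genes, and 7 of them were expressed highly enough to be tested. *Anxa3* was the exception, being listed at 0 in 7 libraries and at 0.17 TPM in the first CypD OE library. The 4 remaining annexin genes of the table, *Anxa8*, *Anxa9*, *Anxa10* and *Anxa13*, were used to complete the family total.

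Cells were studied in 4 groups of 2 libraries. WT cells and CypD KO cells, in which *Ppif* (the gene for the mitochondrial matrix isomerase cyclophilin D) had been targeted with CRISPR-Cas9 and clones selected with puromycin, were kept at 21% O2 for 24 h. Control cells carried the pcDNA vector and CypD OE cells carried pcDNA-CypD, both as G418-resistant clones, and both were kept at 1% O2 for 24 h. How many clones each line represents, and whether the 2 libraries of a group came from separate cultures, is not given in the sources used here, so that p-values may measure technical spread only. Oxygen, vector and selection differ together between the pairs of lines, and their effects cannot be told apart in any comparison of a 1% O2 group with a 21% O2 group. No transfection, drug selection or choice of clones is described for WT. In CypD KO against WT, these cannot be told apart from loss of CypD.

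Expression was given as TPM (relative transcript abundance), a level already divided by transcript length, so that levels of different genes can be set side by side. Every library has the same TPM sum and no read counts were used, so the depth behind single values is unknown. Differences between groups are given on the log2(TPM + 1) scale with their standard error (SE), and were called at a Benjamini-Hochberg adjusted p under 0.05 over 13526 genes in limma. *Ppif* itself was at 50.7 and 50.0 in WT, 10.4 and 12.1 in CypD KO, 44.6 and 42.2 in Control, and 50.3 and 49.3 TPM in CypD OE. It was therefore lower in CypD KO than in WT (log2 difference -2.07, limma adjusted p = 3.81e-06). In the libraries labelled CypD OE it exceeded Control by only 0.19 on the log2 scale (limma adjusted p = 0.0794), which did not pass the threshold.

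Annexins bind acidic phospholipids, above all phosphatidylserine, on the inner face of membranes when calcium rises. They share a core of repeated annexin domains and differ in their N-terminal tails, which bind S100 proteins and other EF-hand calcium sensors. In tumor cells they are known for membrane repair, vesicle traffic, and, at the cell surface, plasminogen activation and the control of inflammation. On GRCm39 with the GENCODE vM39 annotation, the 8 genes lay on 7 chromosomes. *Anxa6* encoded the longest protein, 667 residues from 25 exons of its canonical transcript. *Anxa1*, *Anxa2*, *Anxa3*, *Anxa4* and *Anxa5* encoded 319 to 346 residues from 13 exons each, and *Anxa7* and *Anxa11*, which have long N-terminal tails, encoded 463 and 503.

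The 250 bases before the canonical start of each gene were searched on both strands for short motifs. ACGTG, a form of the core of the hypoxia response element, occurred in the windows of *Anxa2* and *Anxa5* and in no other member's. Other forms of the core were not searched. ACGTG was found in 17.0% of the 21757 promoters of protein-coding genes searched in the same way. Among the 8 windows, the share with a match was not far from this background. The AP-1 motif TGANTCA was found only before *Anxa2* among the members, and in 6.18% of all promoters. Neither the E-box CACGTG, which contains ACGTG, nor the TEAD motif GGAATG, the TATA motif TATAAA or the CCAAT box was present in any of the 8 windows, and these occurred in 6.26%, 12.1%, 11.9% and 36.5% of all promoters. The 3 matches are shown in 30 bases of GRCm39, in the direction in which the gene is read, with the motif (or its reverse complement CACGT) in capitals. They lie at chr9:69360816-69360845 (plus strand), chr9:69360859-69360888 (plus strand) and chr3:36530044-36530073 (minus strand).
Anxa2, ACGTG on the opposite strand, 74 bases before the start: cggtggagctgtCACGTagggcaggactgg
Anxa2, TGANTCA, 32 bases before the start: tccaagttggaTGAGTCAcccagcagggtg
Anxa5, ACGTG, 12 bases before the start: aggagcatagaggctaggACGTGgcagggc
*Anxa2*, *Anxa3*, *Anxa4*, *Anxa5* and *Anxa11* have further annotated starts, so that a match or its absence depends on the start used. The *Anxa5* window also covers a gene read in the opposite direction, *1810062G17Rik*. A match gives the letters of the window and does not show that a factor binds there. Whether the matches relate to the differences between groups was not tested.

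*Anxa5*, which binds phosphatidylserine on the outside of dying cells and is known as a reagent for that purpose, was the most abundant annexin transcript in all 8 libraries. Its level was 419 and 406 in WT, 845 and 855 in CypD KO, 500 and 494 in Control, and 420 and 409 TPM in CypD OE. The CypD KO libraries stood far above the rest, Control stood between, and WT and CypD OE overlapped. By mean level it ranked 323 of 13526 genes in WT and 166 in CypD KO.

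*Anxa2* forms a tetramer with S100A10 at the plasma membrane and serves there as a site of plasminogen activation. It was measured at 177 and 180 in WT, 705 and 690 in CypD KO, 412 and 431 in Control, and 174 and 167 TPM in CypD OE. No library of CypD KO or Control came near those of WT and CypD OE, and the latter groups did not overlap each other. Its rank by mean level moved from 836 in WT to 186 in CypD KO, and from 304 in Control to 854 in CypD OE.

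*Anxa1*, a glucocorticoid-induced protein that limits inflammation through formyl peptide receptors, was at 170 and 163 in WT and 374 and 348 TPM in CypD KO. In Control it was at 138 and 145 TPM, and in CypD OE at 228 and 227 TPM. The 4 groups did not overlap, and unlike *Anxa2* the gene was lower in Control than in WT and higher in CypD OE than in Control.

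*Anxa11*, which tethers RNA granules to lysosomes and takes part in secretory traffic, had its highest level in CypD OE. It was at 43.5 and 44.0 in WT, 54.0 and 52.5 in CypD KO, 45.9 and 47.0 in Control, and 81.5 and 82.5 TPM in CypD OE. It lies on the same chromosome as *Ppif* (chr14:25842547-25887229, plus strand), 135.2 kb beyond the end of that gene, with 1 protein-coding gene between them.

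*Anxa4*, an annexin of epithelial membranes and exocytosis, was at 28.9 and 27.8 in WT, 43.6 and 46.6 in CypD KO, 50.9 and 48.2 in Control, and 37.2 and 38.3 TPM in CypD OE. WT was lowest and Control highest, with no overlap of groups. *Anxa7*, which promotes membrane fusion in exocytosis, was at 30.0 and 30.3 in WT, 46.5 and 48.2 in CypD KO, 22.5 and 25.4 in Control, and 25.6 and 28.9 TPM in CypD OE. Only CypD KO was above WT, and the libraries of both 1% O2 groups lay below it. *Anxa6*, the annexin with a duplicated core, known for late endosomes and cholesterol traffic, varied least. Its values were 24.2 and 22.2 in WT, 26.7 and 27.9 in CypD KO, 25.1 and 28.4 in Control, and 20.6 and 23.2 TPM in CypD OE, so that CypD KO and Control overlapped, as did WT and CypD OE.

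**Figure D1:**
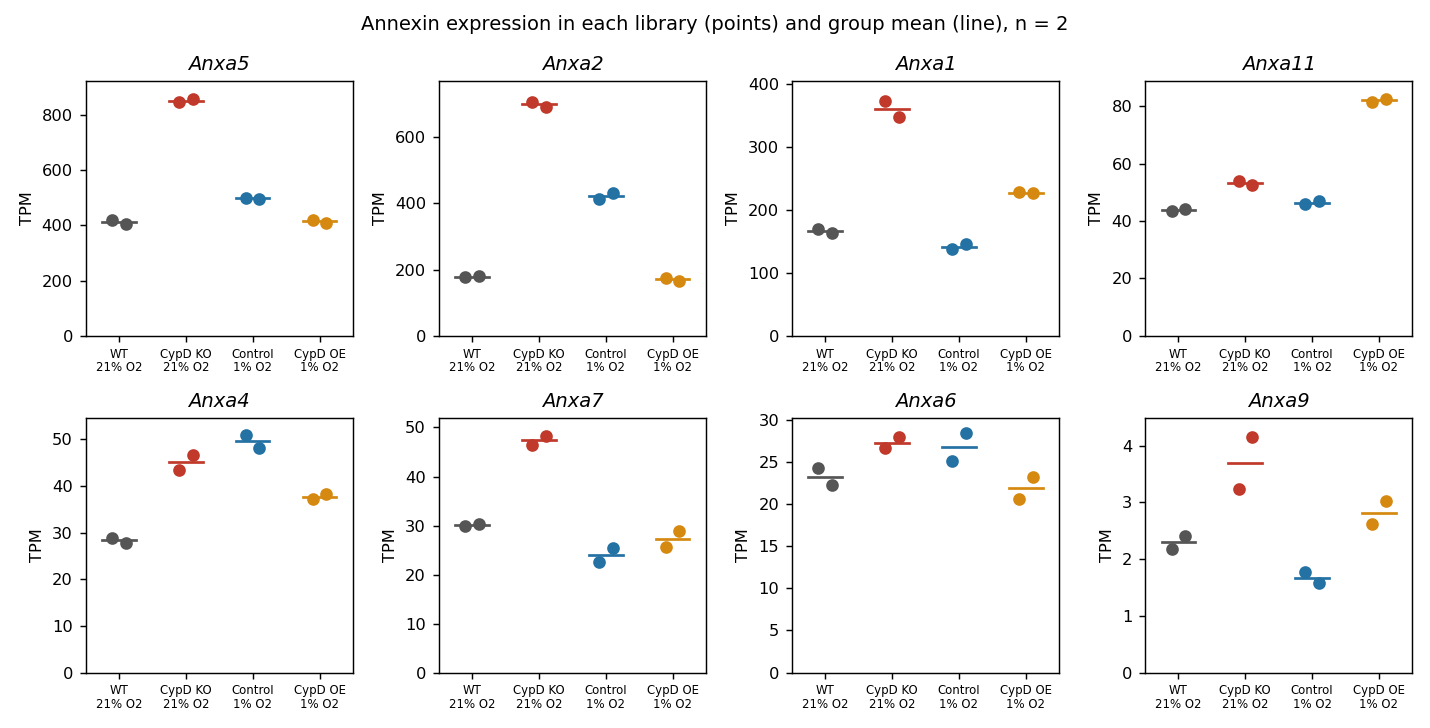
Level in TPM (y axis, from 0) of the 7 tested members and *Anxa9* in each library (points) of the 4 groups (x axis), with group means as lines, n = 2. The CypD KO libraries are highest for *Anxa5*, *Anxa2*, *Anxa1*, *Anxa7* and *Anxa9*, the CypD OE libraries for *Anxa11*, and the highest mean of *Anxa4* is that of Control.

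In WT the order of levels was *Anxa5*, *Anxa2*, *Anxa1*, *Anxa11*, *Anxa7*, *Anxa4* and *Anxa6*, and no neighbours in it overlapped. The order in CypD KO was the same, except that *Anxa7* and *Anxa4* overlapped (46.5 to 48.2 and 43.6 to 46.6 TPM). Control had *Anxa4* above *Anxa11* in the fourth place, and its lowest members, *Anxa6* and *Anxa7*, overlapped. In CypD OE *Anxa1* stood above *Anxa2* in the second place, and here again no neighbours overlapped.

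Among the annexins that were not members, *Anxa8* and *Anxa10* were listed at 0 in every library, and *Anxa13* was listed above 0 only in CypD KO, at 0.07 and 0.08 TPM. *Anxa9*, whose product lacks the usual calcium-binding residues, was at 2.18 and 2.41 in WT, 3.23 and 4.15 in CypD KO, 1.77 and 1.58 in Control, and 2.62 and 3.02 TPM in CypD OE. It was called higher in CypD KO than in WT (log2 difference 0.50, limma adjusted p = 0.0303) and in CypD OE than in Control (0.51, limma adjusted p = 0.0355). Its exons share 879 bases with those of *Mindy1* on the opposite strand, which was at 16.1 to 36.6 TPM, and whether reads were counted by strand is not given in the sources used here, so that its values are uncertain. Antisense exons also overlap *Anxa2* (*Gm16144*, 98 bases), *Anxa4* (*Gm44036*, 753 bases), *Anxa5* (*1810062G17Rik*, 548 bases) and *Anxa11* (*Anxa11os*, 113 bases, and *Plac9a*, 426 bases), but these genes reached at most 1.10, 1.29, 2.05, 0.33 and 1.02 TPM. Further antisense overlaps were of *Anxa6* with *Gm74393* (95 bases) and of *Anxa11* with *Gm62337* (179 bases), whose levels were not examined.

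To ask whether annexin expression differed between the CypD KO line and WT cells at 21% O2, CypD KO was compared with WT. Of the 7 members tested, 6 rose and *Anxa6* did not pass the threshold. The median log2 difference was 0.65, against 0.09 over all genes tested. This has to be read against a background in which 30.1% of all tested genes were called higher and 18.4% lower, 4066 and 2486 genes. With median-of-ratios rescaling the split over all genes was 3204 higher and 3481 lower, and the same 6 members stayed higher.

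*Anxa2* changed most, rising 3.92-fold between group means, or by 1.96 on the log2 scale (SE 0.036, 95% interval 1.88 to 2.05, limma adjusted p = 6.54e-07). A rise of that size or more was seen in 1.53% of genes tested. *Anxa1* rose 2.17-fold (log2 1.11, SE 0.047, limma adjusted p = 7.18e-06) and *Anxa5* 2.06-fold (log2 1.04, SE 0.028, limma adjusted p = 1.26e-06). These are the 3 most abundant members, and 6.52% and 7.40% of genes rose by as much as *Anxa1* and *Anxa5*. *Anxa4* and *Anxa7* rose less, by 0.65 (SE 0.056, limma adjusted p = 0.00014) and 0.64 (SE 0.081, limma adjusted p = 0.000795). The increase of *Anxa11* was 0.28 (SE 0.040, limma adjusted p = 0.0015), an amount reached by 34.6% of genes tested. For *Anxa6* the difference was 0.22, with an interval of 0.01 to 0.44 (limma adjusted p = 0.0796).

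The question at 1% O2 was how cells labelled CypD OE differed from Control. Members moved in both directions: 2 rose, 4 fell and 1 did not pass the threshold, with a median of -0.26 against 0.00 over all genes tested. In the background 19.0% of genes were called higher and 18.3% lower.

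*Anxa2* again had the largest difference, at 0.41 times the Control level, and fell by 1.299 on the log2 scale (SE 0.036, 95% interval -1.38 to -1.21, limma adjusted p = 1.88e-06). Only 1.83% of genes fell by as much. *Anxa4* fell by 0.38 (SE 0.056, limma adjusted p = 0.00227) and *Anxa5* by 0.26 (SE 0.028, limma adjusted p = 0.000546). *Anxa6* was lower by a similar amount, -0.28, but with a larger error (SE 0.090, limma adjusted p = 0.0493), and its call was lost under 11 of 15 alternative settings, among them the fit with a replicate block (limma adjusted p = 0.058).

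The members that rose were *Anxa11* and *Anxa1*. *Anxa11* rose 1.77-fold (log2 0.81, SE 0.040, limma adjusted p = 2.46e-05), and 3.82% of tested genes rose by as much. *Anxa1* rose 1.61-fold (log2 0.68, SE 0.047, limma adjusted p = 9.08e-05). *Anxa7* had a difference of 0.18 (interval -0.01 to 0.37, limma adjusted p = 0.13). Thus *Anxa2*, *Anxa4* and *Anxa5* were higher in CypD KO than in WT and lower in CypD OE than in Control. By contrast, *Anxa1* and *Anxa11* were higher in both comparisons. The group means of these comparisons have no library in common. The SE of each gene was estimated from all 8 libraries, so the tests are not fully separate.

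**Figure D2:**
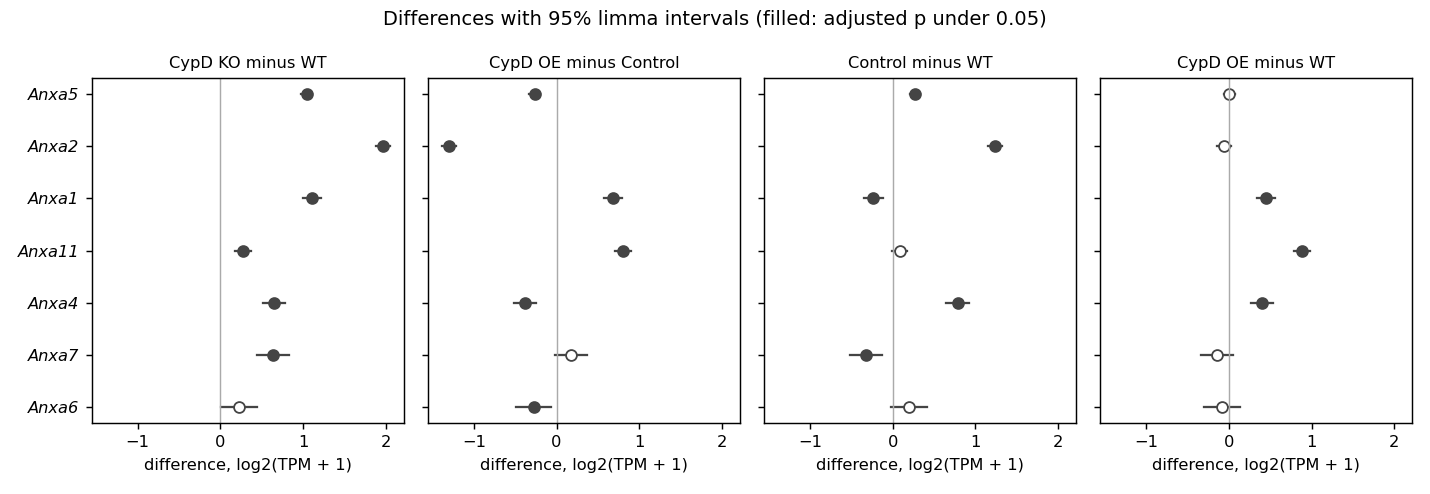
Difference between group means on the log2(TPM + 1) scale (x axis) for each of the 7 tested members (y axis) in the 4 comparisons, with 95% limma intervals and filled points for adjusted p under 0.05. *Anxa2* is at 1.96 in CypD KO minus WT, -1.299 in CypD OE minus Control and 1.24 in Control minus WT, while *Anxa11* is above 0.80 in both comparisons that involve CypD OE.

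The 1% O2 groups were also set beside WT, with which they differ in oxygen, vector and selection at once. These comparisons share libraries with the ones above and add no independent evidence. In Control against WT, 3 members rose, 2 fell and 2 did not pass the threshold, with 12.1% of all genes called higher and 12.1% lower. The rises were of *Anxa2* (2.36-fold, log2 1.24, limma adjusted p = 5.47e-06), *Anxa4* (1.75-fold, log2 0.78, limma adjusted p = 0.000257) and *Anxa5* (1.21-fold, log2 0.27, limma adjusted p = 0.000985). *Anxa1* fell by 0.23 (limma adjusted p = 0.0133) and *Anxa7* by 0.32 (limma adjusted p = 0.0304). Leaving out the first Control library or the first WT library raised the adjusted p of *Anxa1* to 0.0689 and 0.0711, and *Anxa7* lost its call under 8 of 15 settings. *Anxa6* (0.19) and *Anxa11* (0.08) did not pass the threshold.

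In CypD OE against WT, where 14.0% of genes were called higher and 13.7% lower, 3 members rose and 4 did not pass the threshold. *Anxa11* rose 1.87-fold (log2 0.89, limma adjusted p = 6.26e-05), *Anxa1* 1.37-fold (log2 0.45, limma adjusted p = 0.000904) and *Anxa4* 1.33-fold (log2 0.40, limma adjusted p = 0.0029). The differences of *Anxa2* (-0.06, interval -0.15 to 0.02) and *Anxa5* (0.01, interval -0.06 to 0.07) were small, with limma adjusted p = 0.244 and 0.864. For *Anxa7* and *Anxa6* they were -0.14 and -0.08 (limma adjusted p = 0.242 and 0.536).

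Summed over all 12 annexin genes, the level was 885 ± 13.3 in WT, 2086 ± 17.3 in CypD KO, 1208 ± 17.6 in Control, and 984 ± 8.29 TPM in CypD OE (SD, n = 2). The sum in CypD KO was thus 2.36 times that of WT, and no groups overlapped. *Anxa5*, *Anxa2* and *Anxa1* together made up 82.0% to 91.7% of the sum in each library. The make-up differed between groups mainly in *Anxa2*, which held 19.8% and 20.5% of the sum in WT, 33.6% and 33.3% in CypD KO, 34.4% and 35.3% in Control, and 17.6% and 17.1% in CypD OE. In these shares CypD KO resembled Control and WT resembled CypD OE. The share of *Anxa11* was 8.23% and 8.44% in CypD OE against 2.53% to 5.03% in the other libraries. *Anxa1* held 11.5% and 11.9% in Control and 16.8% to 23.2% elsewhere, and *Anxa5* held 40.3% to 46.8%. These shares were not tested, since each follows from the levels above.

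**Figure D3:**
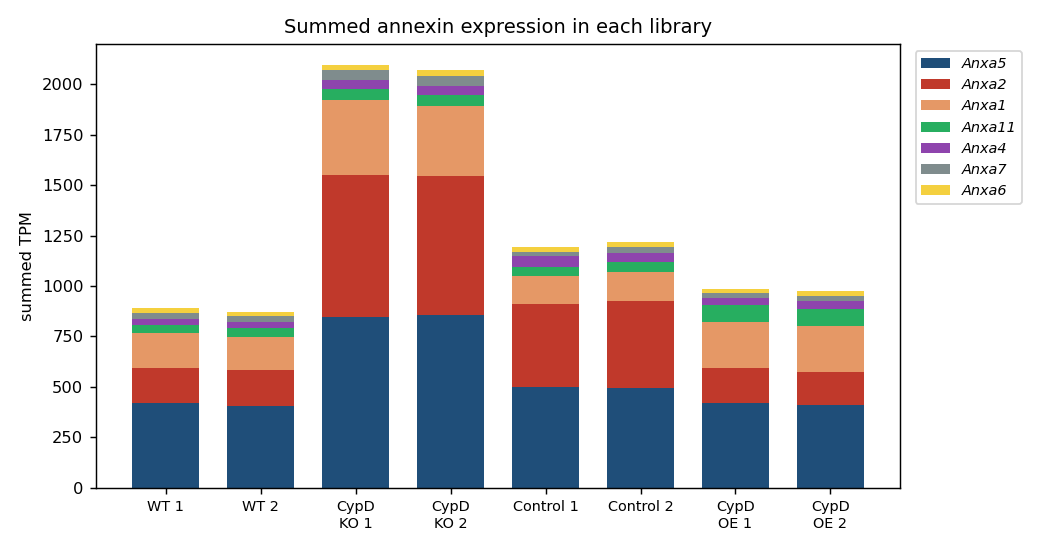
Summed TPM (y axis, from 0) of the 7 tested members in each of the 8 libraries (x axis), stacked by gene. The bars of CypD KO are the tallest, at 2094 and 2069 TPM for these 7 genes, and the *Anxa2* part is thickest in CypD KO and Control.

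The S100 and EF-hand partners of annexins were examined as a list of 8 genes, all of them tested. *Pef1* was counted among these partners, though no annexin that it binds is named here. In CypD KO against WT 7 rose, where 30.1% of all tested genes did, with a median of 1.69 against 0.09 over all genes, and *Pdcd6*, the ALG-2 partner of annexins 7 and 11, did not pass the threshold (0.02, limma adjusted p = 0.837). In CypD OE against Control 3 fell, against 18.3% of all genes, and 5 did not pass the threshold, with a median of -0.22 against 0.00. Against WT, 2 partners were called higher in Control (12.1% of all genes), and 1 higher and 1 lower in CypD OE (14.0% and 13.7% of all genes), shares of the list that are close to the background in CypD OE.

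*S100a10*, the tetramer partner of annexin 2, was at 152 and 148 in WT, 443 and 446 in CypD KO, 147 and 156 in Control, and 111 and 102 TPM in CypD OE. It rose by 1.56 in CypD KO (limma adjusted p = 2.4e-06) and fell by 0.50 in CypD OE against Control (limma adjusted p = 0.000369). Between Control and WT, where *Anxa2* rose, *S100a10* differed by 0.01 (interval -0.10 to 0.13, limma adjusted p = 0.86). Per *S100a10* transcript there were thus 1.16 and 1.22 *Anxa2* transcripts in WT, 1.59 and 1.55 in CypD KO, 2.80 and 2.76 in Control, and 1.57 and 1.63 in CypD OE. Control stood apart from the other groups in this ratio.

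*S100a11*, the partner of annexin 1, was at 260 and 282 in WT, 1002 and 1038 in CypD KO, 326 and 333 in Control, and 299 and 310 TPM in CypD OE. Its rise in CypD KO was 1.91 (limma adjusted p = 1.17e-06), and its difference of -0.11 in CypD OE against Control did not pass the threshold (limma adjusted p = 0.0952). The ratio of *Anxa1* to *S100a11* was 0.655 and 0.577 in WT, 0.373 and 0.335 in CypD KO, 0.423 and 0.436 in Control, and 0.764 and 0.730 in CypD OE. The annexin 1 transcript therefore rose less in CypD KO than its partner's did, and the CypD OE libraries had the highest ratio.

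**Figure D4:**
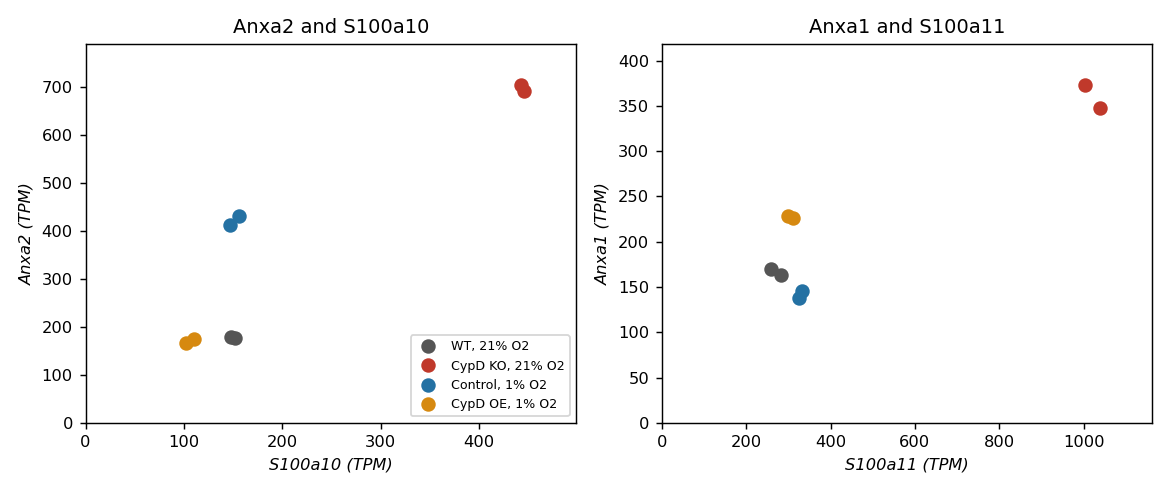
Levels in TPM of *Anxa2* against *S100a10* (left) and of *Anxa1* against *S100a11* (right) in the 8 libraries, colored by group, with both axes from 0. CypD KO lies at the upper right in both panels, and Control is set apart on the left by 412 and 431 TPM of *Anxa2* at an *S100a10* level like that of WT.

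The largest rises among the partners were of *S100a4* and *S100a6*, which were low in WT. *S100a6*, a partner of annexins 2 and 11, was at 11.2 and 8.22 in WT, 288 and 290 in CypD KO, 12.4 and 8.91 in Control, and 7.50 and 10.8 TPM in CypD OE (CypD KO minus WT 4.77, limma adjusted p = 9.45e-06). *S100a4*, a partner of annexin 2 linked to metastasis, was at 6.68 and 2.07 in WT, 176 and 180 in CypD KO, 9.76 and 8.51 in Control, and 1.95 and 3.02 TPM in CypD OE. It rose by 5.20 in CypD KO (limma adjusted p = 7.52e-05) and fell by 1.55 in CypD OE against Control (limma adjusted p = 0.0196). *S100a1*, a partner of annexin 6, rose by 1.81 in CypD KO (limma adjusted p = 5.36e-06), fell by 0.79 in CypD OE against Control (limma adjusted p = 0.000285) and was higher in Control than in WT by 0.81 (limma adjusted p = 0.000523). The EF-hand proteins *Pef1* and *Sri*, of which sorcin (*Sri*) binds annexin 7, rose in CypD KO by 0.34 and 0.25 (limma adjusted p = 0.03 and 0.0274), and differed by -0.24 and -0.06 in CypD OE against Control (limma adjusted p = 0.115 and 0.558).

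Genes of the processes in which annexins act were examined next. For each list the background is that 30.1% of all tested genes rose and 18.4% fell in CypD KO against WT, and 19.0% rose and 18.3% fell in CypD OE against Control, with medians of 0.09 and 0.00. The membrane repair list held 16 tested genes of 18, of which 12 rose and 2 fell in CypD KO (median 0.35), and 3 rose and 8 fell in CypD OE against Control (median -0.23). The genes that fell in CypD KO and those that rose in CypD OE were thus no more frequent than among all genes. The gene that changed most in CypD KO was *Lgals3*, the galectin that marks damaged vesicles, at 68.0 and 59.4 in WT, 1270 and 1250 in CypD KO, 154 and 163 in Control, and 68.1 and 76.2 TPM in CypD OE. It rose by 4.29 in CypD KO (limma adjusted p = 6.54e-07) and fell by 1.13 in CypD OE (limma adjusted p = 8.9e-05). *Dysf*, the repair protein dysferlin, rose by 3.22 in CypD KO (limma adjusted p = 8.39e-05), from a mean of 0.76 TPM to one of 15.4 TPM, and its difference of 0.55 in CypD OE did not pass the threshold (limma adjusted p = 0.125). *Myof*, the related myoferlin, rose in both, by 2.66 (limma adjusted p = 1.17e-06) and 0.91 (limma adjusted p = 0.000128). The genes that fell in CypD KO, singled out after their values were seen, were the caveolar coat gene *Cavin1* (-0.44) and the ESCRT ATPase gene *Vps4b* (-0.39), with limma adjusted p = 0.000962 and 0.00816.

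Annexin 2 with S100A10 acts in plasminogen activation at the cell surface, and 6 of the 7 genes examined of that list were tested, *Plg* itself being listed at 0 in every library. All 6 rose in CypD KO (median 1.56), against 30.1% of all genes, while 2 rose and 3 fell in CypD OE against Control (median -0.28), against 19.0% and 18.3%. Not all of them encode activators. The counts include *Serpine2*, an inhibitor gene, which rose by 1.34 in CypD KO and 0.74 in CypD OE (limma adjusted p = 0.00334 and 0.0465). They also include the glycolytic enzyme gene *Eno1*, at 0.455 and -1.33 (limma adjusted p = 5.92e-05 and 1.21e-06). *Plat*, the tissue plasminogen activator, was at 1.64 and 1.48 in WT, 13.5 and 12.6 in CypD KO, 5.24 and 4.83 in Control, and 0.88 and 0.54 TPM in CypD OE. It followed *Anxa2* in its directions, rising by 2.46 in CypD KO (limma adjusted p = 2.48e-05) and falling by 1.83 in CypD OE (limma adjusted p = 0.000141). *Plau*, which encodes urokinase, also rose by 1.77 in CypD KO (limma adjusted p = 0.000365) and fell by 0.66 in CypD OE against Control (limma adjusted p = 0.0336), at a level of at most 3.68 TPM. The urokinase receptor gene *Plaur* rose in both, by 2.46 in CypD KO (limma adjusted p = 0.000145) and by 0.75 in CypD OE (limma adjusted p = 0.0319).

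The scramblases and flippases that expose or withdraw phosphatidylserine, the ligand of annexin 5, were represented by 11 tested genes of 14. In CypD KO 7 rose and 4 did not pass the threshold (median 0.45), and in CypD OE against Control 2 rose, 1 fell and 8 did not pass it (median 0.19). Of all genes 30.1% rose in the first comparison, and in the second 19.0% rose and 18.3% fell, so that the rises of the list in CypD OE were near the background. The rises in CypD KO were led by *Plscr2* (1.64, limma adjusted p = 0.00137) and *Plscr4* (1.09, limma adjusted p = 0.000541), which encode phospholipid scramblases, and by *Atp11b* (0.86, limma adjusted p = 0.00017), which encodes a flippase. In CypD OE against Control these genes had differences of 0.14, 0.30 and 0.20 (limma adjusted p = 0.685, 0.111 and 0.0893).

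The receptors of secreted annexin 1 were not seen: *Fpr1*, *Fpr2* and *Fpr3* were listed at 0 in all libraries, as was *Ptgs2*. Of the 3 tested genes of the formyl peptide receptor and phospholipase A2 list, the cyclooxygenase gene *Ptgs1* rose in CypD KO (0.88, limma adjusted p = 0.00686), and in CypD OE against Control none passed the threshold (median 0.32). The glucocorticoid response list, chosen because *Anxa1* is a classical glucocorticoid target, had 7 tested genes of 8. In CypD KO 5 rose and 2 did not pass the threshold (median 1.07), and in CypD OE against Control 3 rose, 2 fell and 2 did not pass it (median 0.13), beside 30.1% of all genes that rose in CypD KO, and 19.0% that rose and 18.3% that fell in CypD OE. *Sgk1*, a kinase gene, rose in both as *Anxa1* did, by 1.83 (limma adjusted p = 6.23e-05) and 1.09 (limma adjusted p = 0.000988). The phosphatase gene *Dusp1* rose by 2.30 in CypD KO (limma adjusted p = 1.16e-05) and fell by 0.74 in CypD OE (limma adjusted p = 0.00235), and the transcription factor gene *Klf9* rose by 1.48 (limma adjusted p = 0.000147) and fell by 0.96 (limma adjusted p = 0.00165).

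**Figure D5:**
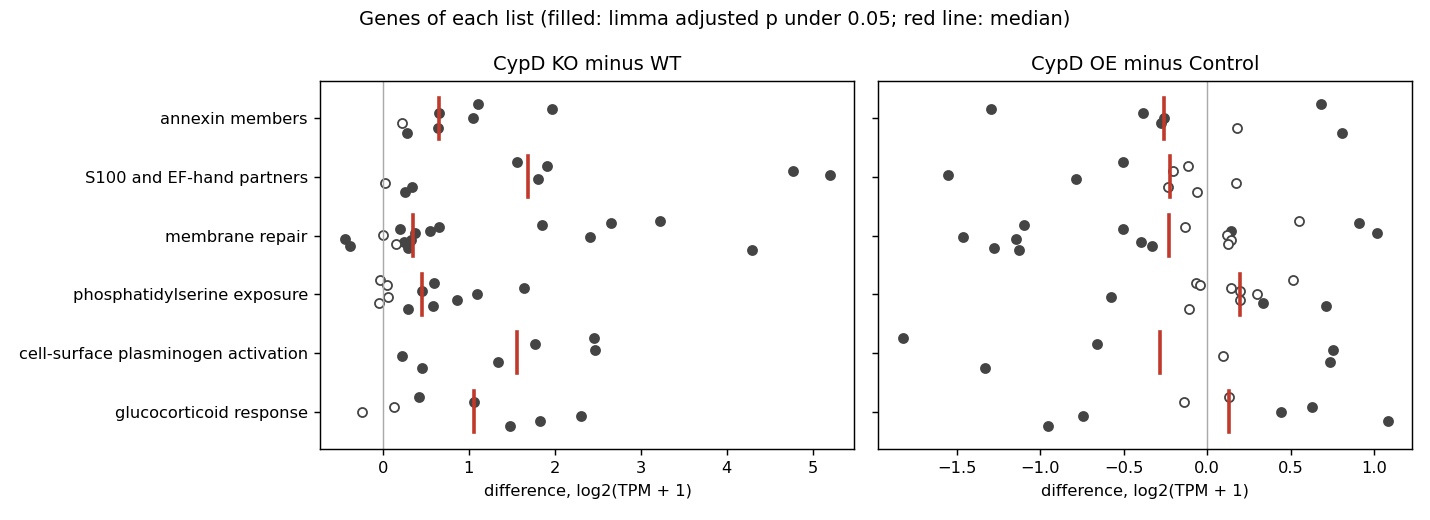
Difference on the log2(TPM + 1) scale (x axis) of each tested gene of 6 lists (y axis) in CypD KO minus WT (left) and CypD OE minus Control (right), with filled points for limma adjusted p under 0.05 and the list median as a red line. The annexin median is 0.65 on the left and -0.26 on the right, and that of the S100 and EF-hand partners is 1.69 and -0.22.

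Genes whose levels over the 8 libraries were most like those of each member that rose in CypD KO were found by Pearson's r of log2(TPM + 1), as a description in which points of a group lie close together. *Anxa5* was matched most closely by *Rhob* (r = 0.999), *Emp1* (r = 0.999) and *Lgals3* (r = 0.998). For *Anxa2* they were *Lamtor2* (0.996), *Zfp943* (0.995) and *Arhgef11* (0.995), and for *Anxa1* they were *Plec* (0.997), *Rsrc1* (0.997) and *Tm4sf1* (0.995). *Rhob*, a small GTPase gene, had 41.4 and 39.4 in WT, 159 and 156 in CypD KO, 54.9 and 55.4 in Control, and 41.5 and 40.1 TPM in CypD OE. Closest to *Anxa4* were *Kdm4c*, *Cdkn1b* and *Zfp664* (0.981 to 0.983), to *Anxa7* were *Btg2*, *Mpp1* and *Snx7* (0.989 to 0.991), and to *Anxa11* were *Eya4*, *Srpk1* and *E2f7* (0.989 to 0.994).

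Hypoxia genes and markers of cell types moved with the groups in the same libraries. The background for their counts is that 30.1% of all tested genes rose and 18.4% fell in CypD KO against WT. It was 19.0% and 18.3% in CypD OE against Control, 12.1% and 12.1% in Control against WT, and 14.0% and 13.7% in CypD OE against WT. In a check list of 10 hypoxia-induced genes, 9 rose and 1 fell in CypD KO against WT, all 10 fell in CypD OE against Control, and all 10 rose in Control against WT. In CypD OE against WT none rose, 2 fell and 8 did not pass the threshold (median -0.21). The libraries labelled CypD OE and 1% O2 thus showed no rise of this list over WT, which bears on every comparison that involves them. The cause was not tested. *Bnip3*, a mitophagy receptor gene, was at 14.4 and 11.1 in WT, 258 and 249 in CypD KO, 311 and 307 in Control, and 13.6 and 12.5 TPM in CypD OE. The gene that fell in CypD KO, *Ndrg1*, was named after its values were seen. All 8 melanocyte markers were expressed, with a summed level of 15940 to 16040 TPM in WT libraries, 12790 to 12960 in CypD KO, 20830 to 21390 in Control and 13770 to 13950 in CypD OE. In CypD KO against WT 2 of them rose and 5 fell, in CypD OE against Control 1 rose and 5 fell, and in Control against WT 7 rose and none fell. Fibroblast markers summed to 75.3 and 75.7 TPM in CypD KO and to 10.04 to 24.3 TPM elsewhere, but *Dcn* and *Thy1* were listed at 0 in every library, and *Col1a2* fell in CypD KO while *Col1a1* and *Postn* rose. Macrophage markers summed to 24.1 and 25.2 TPM in CypD KO and to 1.15 to 4.90 TPM elsewhere, nearly all of it *Cd68*, with *Adgre1*, *C1qa* and *C1qb* listed at 0 in every library. Endothelial and keratinocyte markers reached at most 1.20 and 0.55 TPM in sum. The part of these genes in the annexin differences was not tested, and in bulk RNA a change in the number of cells of one kind and a change in RNA per cell cannot be told apart.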

How the data were processed

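RNA of B16F10 cells was sequenced by the authors as total RNA libraries after removal of ribosomal RNA. Per the labels and their processing notes, the authors used cutadapt 3.4, STAR 2.7.8a, RSEM 1.3.1 and DESeq2 1.26.0 with GRCm39. The deposited values are TPM per gene, brought by the authors to the same sum in each library, so that a rise of abundant transcripts lowers all other values. TPM holds no counts, and a count test was not used here.

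Tests covered genes reaching 1 TPM in 2 or more of the 8 libraries, as log2(TPM + 1) in limma 3.58.1 (R 4.3.3), with a mean per group fitted over all 8 libraries, eBayes with trend, two-sided tests and Benjamini-Hochberg adjustment over 13526 genes. Differences so computed understate changes of low genes. An exact permutation test of 2 libraries against 2 cannot go below p = 0.333 and was not used. The test was checked on simulated data with independent noise, which does not bear on whether libraries of a group came from separate cultures. Replicate libraries of a group were similar but not identical (Pearson's r 0.983 to 0.985).

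Named were all annexins, all partners and *Ppif*. For each list of a process in which annexins act, the called genes with the 3 largest differences were named. For each member that was called in CypD KO, the 3 genes most like it were named. Outside this rule were *Cavin1*, *Vps4b*, *Serpine2*, *Eno1*, overlapping genes, genes listed at 0 and single cell type markers. Of the hypoxia list, only *Bnip3* and *Ndrg1* were named. For the plasminogen list, 1 gene is not reported here and was left out of its counts. Members, lists and motifs were chosen with earlier results of these data known. Positions and promoters were read from GRCm39 with GENCODE vM39. Alternatives were a pseudocount of 0.1, rescaling by median of ratios, no filter, a filter of 5 TPM, a replicate block, eBayes without trend, fits of 4 libraries, and leaving out each library in turn. Replicate numbers were read from library names and were not described as pairs.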

Additional observations from a re-analysis of the deposited data

How the results depend on the processing

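Of the 28 member differences (7 genes in 4 comparisons), 24 kept their direction and their side of the threshold under all 15 alternatives. Those that did not were *Anxa6* in CypD OE against Control (adjusted p 0.0399 to 0.22, log2 difference -0.36 to -0.19), *Anxa7* in Control against WT (adjusted p 0.0213 to 0.134), *Anxa1* in Control against WT (adjusted p 0.00662 to 0.0711) and *Anxa5* in CypD OE against WT. The last was never called and changed sign from 0.01 to -0.02 with median-of-ratios rescaling, to -0.01 without the first CypD OE library and to -0.01 without the second WT library; over all libraries left out in turn it ranged from -0.014 to 0.030. Its cause was not tested. When libraries were left out in turn, 3 to 5 members were called in Control against WT, with 3 without Control replicate 1 and 3 without WT replicate 1, against 5 with all libraries.

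With a replicate block 6 members were called in CypD KO against WT, 5 in CypD OE against Control, 5 in Control against WT and 3 in CypD OE against WT, *Anxa6* (adjusted p 0.058) being the only call lost. Deviations of same-numbered libraries over 13526 genes correlated at 0.11 in the first of these comparisons and at -0.002, -0.019 and -0.009 in the others. With 2 libraries per group, these correlations cannot decide whether same-numbered libraries were paired.

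Over all genes, the higher and lower calls fell from 1634 and 1635 in Control against WT to 998 and 983 with a fit of 4 libraries, to 1014 and 996 or 939 and 1082 without the first or second Control library, and to 1073 and 1036 or 1026 and 983 without the first or second WT library. In CypD OE against WT they fell from 1891 and 1853 to 1075 and 1284 or 1167 and 1128 without the first or second CypD OE library, and to 1203 and 1220 without the first WT library. TPM keeps no depth, so genes near 0, such as *Anxa3* and *Anxa13*, cannot be compared between groups.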
